A study of Mus musculus with 27 samples.

Results

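The data described here are the interaction of line and day in mouse embryonic stem cells that lack Quaking, an RNA-binding protein encoded by Qk. For each gene, the change from day 0 to day 3 in the Quaking KO line was compared with the change over the same days in the wild type, which is the same as asking whether the difference between the lines at day 3 differs from that at day 0. The comparison used 12 of the 27 libraries of the series, in 4 groups of 3 replicates, and 19949 genes passed the filter on low counts. All cells are on the E14 background, a male line of mouse embryonic stem cells. The groups are Wild Type at time 0, Wild Type at time 3, Quaking KO at time 0 and Quaking KO at time 3, where time 0 is stem cells and time 3 is day 3 of embryoid body differentiation, in which cells are grown as aggregates and leave pluripotency. The series also holds a Sam68 KO line and a day 10 time point. Only 1 Quaking KO line was used, and what is peculiar to that clone cannot be told apart from the loss of Quaking. RNA was total RNA depleted of ribosomal RNA and read as paired 125-base reads.

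Quaking belongs to the STAR family of RNA-binding proteins, which act on splicing, stability, localisation and translation of their target RNAs. It recognises an ACUAAC-like element in RNA. Between stem cells and early embryoid bodies, cells normally shut down the naive pluripotency network, pass through a formative and primed epiblast-like state, and begin to lay down germ layer and extraembryonic endoderm genes. An interaction can arise because the lines differ before differentiation and then converge, or because they start alike and then part, so each called gene was assigned to the day that drives it.

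The libraries held 63.3 to 71.4 M counts (1 M is 1e+06). Mitochondrial genome transcripts took 12.2% to 16.5% of the counts at day 0. At day 3 they took 10.7% in wild-type replicate 1 and 12.3% in Quaking KO replicate 1, against 6.32% to 7.3% in the other 4 libraries, so replicate 1 stood apart at day 3 in both lines. Without replicate 1 of all 4 groups, 2500 genes had an interaction, against 3172 with it. Naive stem cell markers (Esrrb, Tfcp2l1, Zfp42, Klf4 and Tbx3) summed to 1610 to 1660 CPM (counts scaled to 1 M per library) in wild type at day 0 and 83.3 to 102 at day 3. In the Quaking KO they summed to 2060 to 2110 at day 0 and 98.2 to 104 at day 3. Primed epiblast markers (Fgf5, Pou3f1 and Otx2) summed to 14.6 to 15.5 CPM in wild type at day 0 and 226 to 240 at day 3, and to 10.2 to 11.1 and 222 to 232 in the Quaking KO. The labelled cell type and days were matched by their markers in both lines. In bulk RNA, fewer cells of a type and less RNA per cell cannot be told apart.

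The targeted transcript was still counted in the knockout. Qk lies on the minus strand of chr17:10202601-10319854 (GRCm38). It held 224, 218 and 213 CPM in wild type at day 0 and 220, 219 and 205 at day 3. The Quaking KO libraries held 155, 137 and 146 CPM at day 0 and 118, 110 and 105 at day 3. All KO libraries lay below all wild-type libraries, and the KO day 3 libraries lay below the KO day 0 libraries. The difference was -0.58 ± 0.05 (log2 fold change ± SE) at day 0 and -0.95 ± 0.05 at day 3, and the interaction was -0.37 ± 0.07 (edgeR quasi-likelihood test, Benjamini-Hochberg adjusted p = 0.000999). A count per gene does not show whether the remaining transcripts encode protein. Khdrbs1, which encodes the related STAR protein Sam68, was lower in the Quaking KO at day 0 (-0.43 ± 0.06), and its interaction was 0.50 ± 0.08 (adjusted p = 0.000219).

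The lines were further apart before differentiation than after 3 days of it. Of the 19949 genes, 6491 (32.5%) differed between Quaking KO and wild type at day 0 and 1677 (8.41%) at day 3, at an adjusted p under 0.05. An interaction was called for 3172 genes (15.9%), of which 1885 (9.45%) were higher, meaning that the Quaking KO difference moved upward from day 0 to day 3, and 1287 (6.45%) were lower. Over all genes tested the median interaction was 0.01 (log2), and the median differences were -0.01 at day 0 and 0 at day 3. A 2-fold interaction or more was seen in 578 of the called genes, 437 higher and 141 lower.

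A called gene was assigned to the start when its day 0 difference was called and was at least 2 times the size of the day 3 difference on the log2 scale, and to the end in the reverse case. The start level drove 2261 of the 3172 genes (71.3%, or 11.3% of all genes tested), 1430 higher and 831 lower. Their median absolute difference was 0.49 at day 0 and 0.08 at day 3. The end level drove 258 genes (8.13%, or 1.29% of all genes tested), 118 higher and 140 lower, with medians of 0.07 at day 0 and 0.39 at day 3. Another 123 genes (3.88%) differed at both days with opposite signs and similar sizes, so that the order of the lines crossed. A further 34 (1.07%) differed at both days with the same sign, and 496 (15.6%) were not assigned. The class is a description from fitted values and has no test of its own. Its direction was uneven among large changes: 371 of the 426 start-driven genes with a 2-fold interaction were higher, while 27 of the 33 end-driven ones were lower. Direction was also uneven by chromosome. On chromosome 6, 160 genes were higher and 32 lower, and on chromosome 8, 142 and 47, against 1885 and 1287 over all genes. The median difference on chromosome 6 was -0.19 at day 0 and -0.08 at day 3. Whether the lines differ in copies of a chromosome was not tested.

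**Figure D1:**
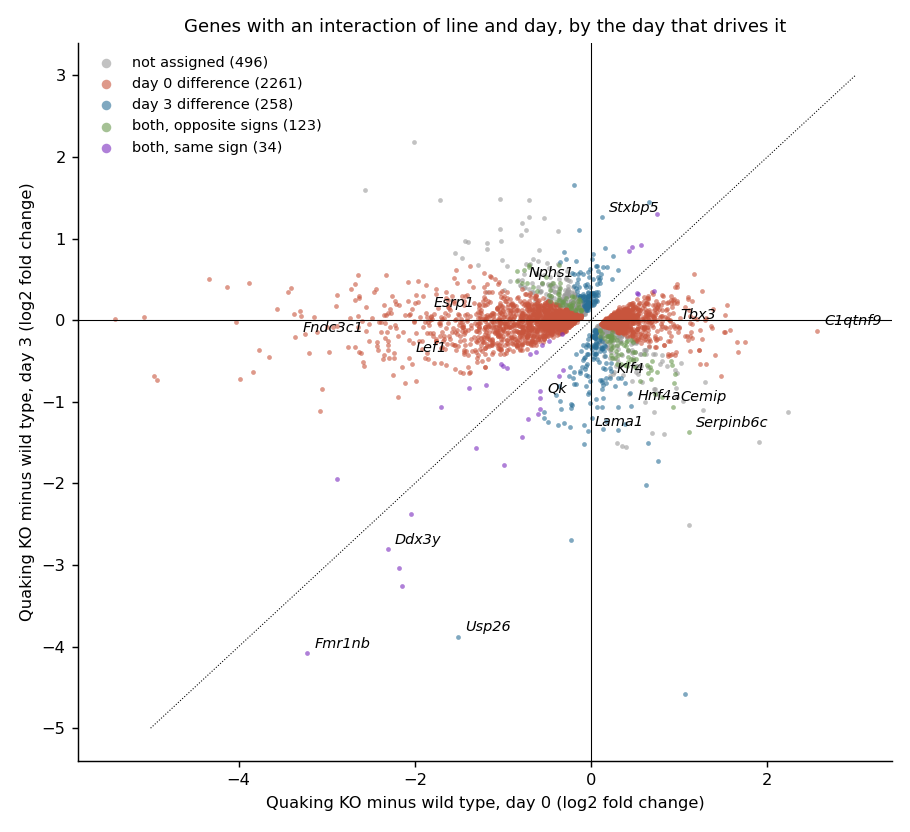
Quaking KO minus wild type at day 0 (x axis) against day 3 (y axis), both as log2 fold changes, for the 3172 genes with an interaction; each point is a gene, coloured by the day that drives it, and the dotted line marks equal differences. The 2261 start-driven genes spread along the x axis, mostly to the left, and the 258 end-driven genes spread along the y axis.

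Epithelial genes were mostly start-driven. Of 20 epithelial and keratin genes tested, 12 had a higher interaction, 2 had a lower one and 6 were not called, against 9.45% higher and 6.45% lower over all genes. The start drove 12 of the 14, against 71.3% of all called genes, a share to be read beside each list below. The median difference over the 20 genes was -0.45 at day 0 and 0.06 at day 3.

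Esrp1, an epithelial splicing regulator, showed this in every library. It held 9.26, 8.5 and 9.02 CPM in wild type at day 0 and 79.4, 82.1 and 78.7 at day 3. The Quaking KO held 2.61, 2.31 and 2.41 CPM at day 0 and 85, 88.3 and 82.3 at day 3. The lines did not overlap at day 0, and at day 3 the KO libraries lay slightly above the wild type, a difference that was not called. The interaction was 1.96 ± 0.08 (edgeR, adjusted p = 8.51e-11), with a difference of -1.87 ± 0.07 at day 0 and 0.09 ± 0.04 at day 3. Esrp1 lies on the minus strand of chr4:11331933-11386783.

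Cldn6, a tight junction claudin, went from 19.6, 19.3 and 19.5 CPM to 148, 139 and 150 in wild type, and from 10.1, 9.47 and 10.5 CPM to 147, 149 and 152 in the Quaking KO. Its day 0 groups did not overlap and its day 3 groups did, and the interaction was 0.99 ± 0.06 (edgeR, adjusted p = 8.5e-09). Grhl2, a transcription factor of epithelial identity, had an interaction of 1.14 ± 0.07 with differences of -0.94 at day 0 and 0.20 at day 3. Krt18, a keratin of simple epithelia, had 1.00 ± 0.08, and Epcam, an epithelial adhesion molecule, 0.62 ± 0.05 with no measurable difference left at day 3 (0.00 ± 0.03). Cldn7, Prss8 and Cldn3 had interactions of 1.07, 0.94 and 0.94. Cdh1, which encodes E-cadherin, crossed by a small amount: -0.12 at day 0 and 0.12 at day 3. Cldn4 was the end-driven member (0.02 and 0.33). It fell short of the threshold when wild-type day 0 replicate 3, wild-type day 3 replicate 2 or Quaking KO day 0 replicate 1 was left out (edgeR adjusted p = 0.0646, 0.0674 and 0.055). The 2 lower members were Krt17 (-1.66 ± 0.39) and Spint1 (-0.38 ± 0.06), both higher in the Quaking KO at day 0. Krt17 lost its call without wild-type day 3 replicate 3 (-1.07, edgeR adjusted p = 0.105). Krt8, the partner of Krt18, was not called (0.10).

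The 3 promoters shown were picked because each holds an E-box that epithelial repressors of the Snail and Zeb families can bind. The sequences are from RefSeq on GRCm38.p6, 250 bases before to 50 after the start, with CAGGTG in capitals on either strand (its reverse reads CACCTG).
Epcam, chr17:87635729-87636028, plus strand: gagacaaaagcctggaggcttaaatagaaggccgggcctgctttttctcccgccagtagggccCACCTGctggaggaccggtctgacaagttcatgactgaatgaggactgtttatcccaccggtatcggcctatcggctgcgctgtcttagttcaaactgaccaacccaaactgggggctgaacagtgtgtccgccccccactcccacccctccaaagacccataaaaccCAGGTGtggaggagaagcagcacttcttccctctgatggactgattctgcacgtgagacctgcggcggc
Krt18, chr15:102027966-102028265, plus strand: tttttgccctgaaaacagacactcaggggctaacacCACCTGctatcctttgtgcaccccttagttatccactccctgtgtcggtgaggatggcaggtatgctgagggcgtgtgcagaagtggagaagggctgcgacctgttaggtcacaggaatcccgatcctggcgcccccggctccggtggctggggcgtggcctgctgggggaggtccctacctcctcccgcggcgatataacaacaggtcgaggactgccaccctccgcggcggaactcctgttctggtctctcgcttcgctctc
Cldn6, chr17:23679115-23679414, plus strand: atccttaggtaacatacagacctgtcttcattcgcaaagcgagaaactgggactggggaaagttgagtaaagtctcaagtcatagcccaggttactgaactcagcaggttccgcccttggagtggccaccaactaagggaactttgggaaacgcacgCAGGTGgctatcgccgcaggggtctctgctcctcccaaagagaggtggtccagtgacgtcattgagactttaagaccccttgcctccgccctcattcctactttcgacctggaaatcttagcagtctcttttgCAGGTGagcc
Of the higher epithelial members, 7 had a promoter in the table and 5 of those held CAGGTG (Epcam, Krt18, Cldn3, Cldn4 and Cldn6). Cldn7 did not hold it, and Cldn4, which did, was end-driven and not low at day 0. Esrp1 and Grhl2 had no promoter there. Over all genes tested with a promoter, 2319 of 12394 (18.7%) held it. A match is a description of the letters and does not show binding. Epithelial genes that were not called were not counted. Whether a Snail or Zeb repressor acts on these genes was not tested. Zeb1, a repressor of that kind, held 23.3, 24.1 and 21.9 CPM in wild type at day 0 against 27.7, 27.3 and 27.7 in the Quaking KO. By day 3 the values were 2.65, 2.96 and 2.58 against 2.38, 1.96 and 2.17. Its groups did not overlap on either day and the order crossed, with differences of 0.25 ± 0.06 and -0.33 ± 0.09 and an interaction of -0.59 ± 0.11 (edgeR, adjusted p = 0.000915). Of 14 genes of the epithelial to mesenchymal switch, 6 had a lower interaction, 1 a higher one and 7 were not called. The shares over all genes were 6.45% lower and 9.45% higher. The lower members included Itga5 (-0.40 ± 0.05), the fibronectin receptor alpha chain, and Tgfbr2 (-0.54 ± 0.14), a TGF-beta receptor, and the higher one was Zeb2 (0.49 ± 0.12). Zeb2, a repressor of the same family as Zeb1, went the other way at day 0: it held 6.57, 6.09 and 5.78 CPM in wild type against 4.34, 3.67 and 3.96 in the Quaking KO. At day 3 Zeb2 held 16.3, 16.6 and 14.7 against 16.2, 13.7 and 13.5, and the groups overlapped.

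Formative and primed epiblast genes were also low at the start, in a list that shares members with others. Its higher members include Cldn6 and Grhl2, described with the epithelial genes, and Lef1, which is also in the Wnt list. The counts of these lists are therefore not separate. Of 20 tested, 13 had a higher interaction, none a lower one and 7 were not called. The shares over all genes were 9.45% higher and 6.45% lower. At an unadjusted p under 0.05, 1 was lower in edgeR, and DESeq2 called none lower. The start drove 11 of the 13, and the median difference went from -0.52 at day 0 to -0.05 at day 3. Otx2, a transcription factor of the primed epiblast, held 7.47, 6.9 and 7.11 CPM in wild type at day 0 and 4.91, 5.86 and 5.36 in the Quaking KO. At day 3 the groups overlapped, with 111, 112 and 110 CPM in wild type and 111, 113 and 104 in the Quaking KO. The interaction of Otx2 was 0.39 ± 0.08 and that of Pou3f1, another such factor, 0.55 ± 0.14. Lef1, a nuclear effector of Wnt signalling, held 4.82, 3.84 and 3.71 CPM in wild type at day 0 and 0.966, 0.821 and 1.15 in the Quaking KO. On day 3 the libraries held 35.4, 42.1 and 39.4 against 24.6, 31.4 and 28.8, so the KO libraries stayed below all wild-type libraries at both days. Its interaction was 1.61 ± 0.19 (edgeR, adjusted p = 1.23e-05), and 13.7% of its sequence is shared with other genes. The de novo DNA methyltransferase Dnmt3a had an interaction of 0.47 ± 0.08.

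Some start-driven folds rest on few counts in the Quaking KO stem cells. Fgf5, the classic marker of the primed epiblast, held 0.327, 0.0902 and 0.211 CPM in wild type at day 0 and 0.0339, 0 and 0.0472 in the Quaking KO. It then held 90.4, 109 and 97.1 CPM in wild type and 83.8, 96.7 and 102 in the Quaking KO at day 3. The interaction of 2.81 ± 0.78 (adjusted p = 0.0196) thus turns on 41 counts over 3 wild-type libraries, and the day 3 groups overlapped. It was no longer called when wild-type day 0 replicate 1 (2.35, edgeR adjusted p = 0.0863) or Quaking KO day 0 replicate 2 (2.23, adjusted p = 0.0774) was left out. Vrtn, a gene of vertebral number with more counts, held 2.15, 1.73 and 1.79 CPM against 0.203, 0.325 and 0.173 at day 0. At day 3 Vrtn held 172, 194 and 192 against 156, 197 and 174, and its interaction was 2.91 ± 0.26 (edgeR, adjusted p = 6.31e-07).

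**Figure D2:**
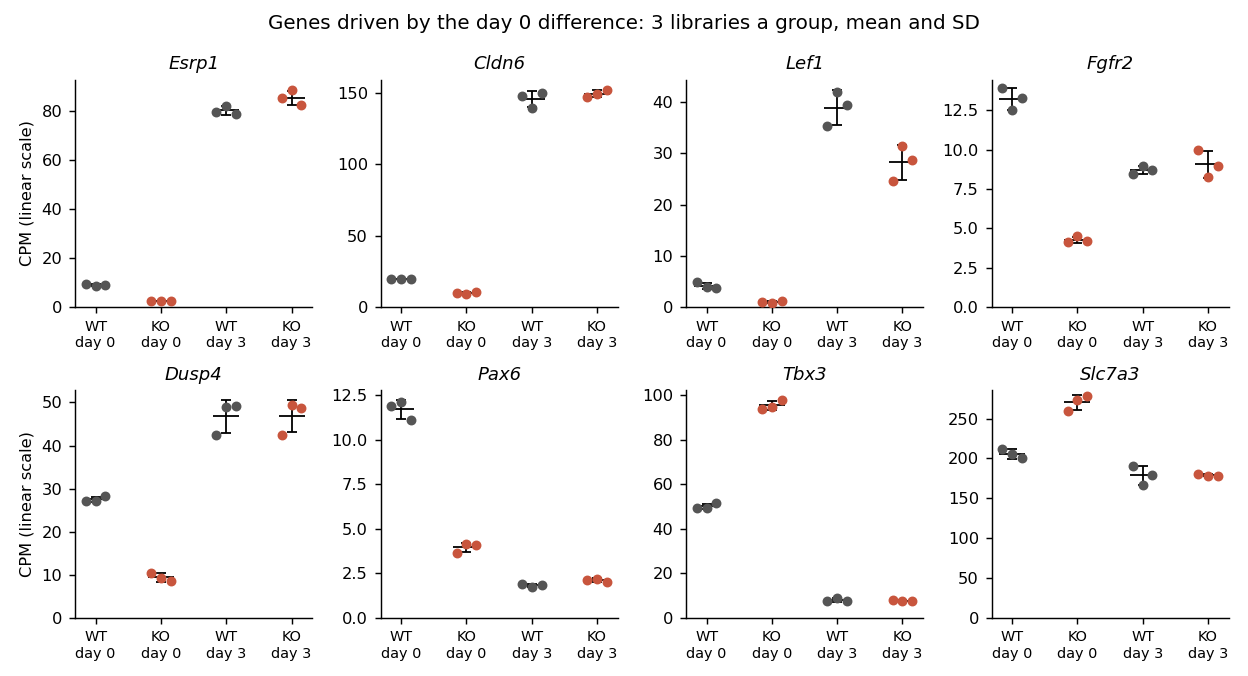
CPM on a linear scale in each of the 12 libraries for 8 genes whose interaction is driven by day 0; grey points are wild type, red points Quaking KO, and the bar and whiskers the mean and SD of 3 libraries. In Esrp1, Cldn6, Lef1, Fgfr2, Dusp4 and Pax6 the Quaking KO libraries at day 0 lie below the wild type, and in Tbx3 and Slc7a3 above it.

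Genes of FGF signalling and its ERK feedback had the same direction. Of 24 tested, 11 had a higher interaction, none a lower one and 13 were not called. The shares over all genes were 9.45% higher and 6.45% lower. The start drove 9 of the 11, against 71.3% of all called genes. At an unadjusted p under 0.05, 2 were lower in edgeR, and DESeq2 called none lower. The receptor Fgfr2 held 13.9, 12.5 and 13.3 CPM in wild type at day 0 and 8.45, 8.98 and 8.71 at day 3. In the Quaking KO it held 4.1, 4.48 and 4.2 CPM at day 0 and 9.95, 8.25 and 8.98 at day 3. Fgfr2 therefore fell in wild type (-0.60 ± 0.07) and rose in the Quaking KO (1.09 ± 0.08), and the day 3 groups overlapped. Its interaction was 1.69 ± 0.11 (edgeR, adjusted p = 9.73e-09). Dusp4, an ERK phosphatase induced by the pathway, held 27.2, 27.1 and 28.2 CPM against 10.5, 9.19 and 8.51 at day 0. The day 3 libraries held 42.4, 48.9 and 49.2 against 42.5, 49.4 and 48.7, and the groups overlapped. The feedback genes Dusp6 (0.66 ± 0.14), Spry1 (0.61 ± 0.09), Spry4 (0.32 ± 0.06) and Spry2 (0.34 ± 0.09) and the early response gene Egr1 (0.87 ± 0.16) were start-driven as well. Fgf15, a ligand, was the end-driven member (0.34 ± 0.10). Its call was lost without any of 7 single libraries (wild-type day 0 replicates 1 and 3, wild-type day 3 replicates 2 and 3, Quaking KO day 0 replicates 1 and 2 and Quaking KO day 3 replicate 3), at values of 0.31 to 0.33. The ligand Fgf4 and the receptor Fgfr1 were not called (0.22 and 0.07). Fgf4 was called with a replicate block within day (0.21, edgeR adjusted p = 0.0107).

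Among Wnt pathway genes and targets, 7 of 27 had a higher interaction and 3 a lower one, against 9.45% and 6.45% over all genes. The start drove 9 of the 10. Nkd2, a feedback inhibitor, had an interaction of 1.04 ± 0.12 and the ligand Wnt8a 2.38 ± 0.39. The secreted antagonist Sfrp1 went the other way (-0.91 ± 0.09), with a day 0 difference of 0.72, as did the receptor Fzd10 (-0.49 ± 0.09). Axin2, the usual readout of the pathway, was not called (0.17).

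Naive pluripotency genes split. Of 21 tested, 4 had a higher interaction and 7 a lower one, against 9.45% and 6.45% over all genes. Another 10 were not called. Of the called members, 7 were start-driven and 4 end-driven. Tbx3, a naive transcription factor, held 49.4, 49.2 and 51.5 CPM in wild type at day 0 against 93.9, 94.6 and 97.6 in the Quaking KO. Its day 3 values were 7.6, 8.88 and 7.43 against 7.95, 7.55 and 7.68, and the groups overlapped. The interaction was -0.98 ± 0.08 (edgeR, adjusted p = 1.53e-07). Nanog, a factor of the pluripotency core, held 394, 411 and 408 CPM against 555, 564 and 585 at day 0. By day 3 the values were 405, 403 and 407 against 410, 443 and 402, and its interaction was -0.44 ± 0.06. Tfcp2l1 (-0.61 ± 0.10), another naive factor, was start-driven in the same direction. Dppa3 went the other way (2.21 ± 0.28), from a day 0 difference of -2.61. It had 96 counts over the 3 Quaking KO libraries at day 0, and 16.5% of its sequence is shared with other genes. Esrrb, Klf2 and Tet2 were not called: their differences were 0.34, 0.58 and 0.44 at day 0 and 0.35, 0.55 and 0.43 at day 3.

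Klf4, a further naive factor, was among the 4 end-driven members. It held 124, 126 and 133 CPM in wild type at day 0 and 3.37, 3.82 and 3.39 at day 3. The Quaking KO held 150, 145 and 148 CPM at day 0 and 2.26, 2.23 and 2 at day 3. The KO libraries were above all wild-type libraries at day 0 and below them all at day 3. The day 3 difference (-0.71 ± 0.08) was larger than that at day 0 (0.21 ± 0.04), and the interaction was -0.92 ± 0.09 (edgeR, adjusted p = 1.06e-06). Fbxo15, a target of the pluripotency network, ended higher in the Quaking KO, with differences of -0.14 at day 0 and 0.41 at day 3. Of 15 core pluripotency genes, 5 had a higher interaction and none a lower one, against 9.45% and 6.45% over all genes. The end drove 3 of the 5: Dppa2 (0.36 ± 0.08), Dppa4 (0.31 ± 0.07) and Dnmt3l (0.39 ± 0.10). None of those 3 was called in the fit of all 27 libraries (edgeR adjusted p = 0.129, 0.0646 and 0.115). At an unadjusted p under 0.05, 1 was lower in edgeR, and DESeq2 called none lower. The sequence of Dppa4 is 31.3% shared with other genes, so its count is uncertain. Pou5f1 and Sox2 were not called (-0.16 and 0.17). With a replicate block over the 12 libraries Pou5f1 was called (-0.16, edgeR adjusted p = 0.0314). Sox2 was called without wild-type day 3 replicate 1, without Quaking KO day 3 replicate 1 and without replicate 1 of all 4 groups.

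The extraembryonic endoderm genes with an interaction were all lower, and most were driven by the end. Of 23 tested, none had a higher interaction, 8 had a lower one and 15 were not called. The shares over all genes were 9.45% higher and 6.45% lower. At an unadjusted p under 0.05, 2 were higher in edgeR, and DESeq2 called none higher. The end drove 5 of the 8, against 8.13% of all called genes. The median difference over the list was -0.52 at day 0 and -0.82 at day 3. Sox7, an endoderm transcription factor, held 10.8, 9.91 and 9.55 CPM in wild type at day 0 against 10.5, 10.4 and 9.5 in the Quaking KO, and the groups overlapped. On day 3 the libraries held 4.69, 4.89 and 5.21 against 2.28, 1.89 and 2.27, with no overlap, and its interaction was -1.21 ± 0.12 (edgeR, adjusted p = 1.85e-06). Hnf4a, a regulator of visceral endoderm, held 2.82, 2.65 and 3 CPM against 3.68, 3.75 and 4.12 at day 0. The day 3 libraries held 3.72, 4.22 and 4.59 against 1.93, 1.9 and 2.24. Hnf4a thus rose in wild type (0.57 ± 0.10) and fell in the Quaking KO (-0.93 ± 0.11), and its interaction was -1.49 ± 0.15. Cubn, an endocytic receptor of the visceral endoderm, had an interaction of -0.66 ± 0.10. Gata6, which specifies primitive endoderm, was lower at both days and more so at day 3: -0.99 ± 0.14 and -1.78 ± 0.15. Gata4, Dab2 and Sox17 were not called, with differences of -0.84, -0.91 and -1.15 at day 0 and -0.73, -0.84 and -1.57 at day 3. Fst, which encodes the activin antagonist follistatin, crossed from 0.63 to -0.55.

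The endoderm markers Gata4, Gata6, Sox7, Dab2 and Amn summed to 42.8 to 45.6 CPM in wild type at day 0 and 62.6 to 72.6 at day 3. They summed to 28.3 to 28.9 and 33.2 to 38.1 CPM in the Quaking KO. None of the 5 was at 0. The part of a different number of endoderm cells in the values of this group was not tested.

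The basement membrane, which endoderm cells lay down, divided by chain. Of 15 genes, 2 had a higher interaction, 8 a lower one and 5 were not called. The shares over all genes were 9.45% higher and 6.45% lower. The 2 higher members were Col18a1, described below, and Lamb1, the laminin beta 1 chain (0.29 ± 0.07). Lamb1 was start-driven, with differences of -0.45 at day 0 and -0.16 at day 3. Lama1, the laminin alpha 1 chain, held 358, 364 and 323 CPM in wild type at day 0 against 353, 330 and 333 in the Quaking KO. Its day 3 values were 102, 104 and 102 against 45.9, 34.9 and 39.7. The lines overlapped at day 0 and were far apart at day 3, and the interaction was -1.32 ± 0.10 (edgeR, adjusted p = 5.5e-08). Lama1 lies on the plus strand of chr17:67697259-67822647. The collagen IV chains Col4a1 (-0.55 ± 0.07) and Col4a2 (-0.59 ± 0.09) were already lower at day 0 (-0.60 and -0.54) and were lower still at day 3 (-1.15 and -1.13). Sparc, a collagen-binding matrix protein listed with the endoderm genes, held 185, 189 and 183 CPM against 194, 200 and 201 at day 0, and 144, 164 and 166 against 90.4, 93.8 and 101 at day 3. By contrast, the nidogen Nid1 (-0.57 ± 0.07) and the laminin gamma 1 chain Lamc1 (-0.36 ± 0.07) were start-driven, with day 3 differences of 0.04 and -0.02. In the fit of all 27 libraries, Col4a1, Col4a2 and Lamc1 were not called (edgeR adjusted p = 0.0625, 0.0587 and 0.142).

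Kdelr3, a retrieval receptor of the endoplasmic reticulum, started above the wild type and ended below it. It held 34.1, 36.4 and 37.9 CPM against 40.8, 40.5 and 40.7 at day 0 and 7.73, 8.25 and 7.81 against 3.43, 3.4 and 3.28 at day 3. Its interaction was -1.40 ± 0.08 (edgeR, adjusted p = 2.38e-09). Kdr, a receptor of early mesoderm and endothelium, was end-driven too (-1.21 ± 0.31), at levels near 1 CPM or below in every library. Of 21 primitive streak and early mesoderm genes, 2 had a higher interaction and 3 a lower one. The shares over all genes were 9.45% higher and 6.45% lower, so the higher count was near the background. The other 16, among them T, Eomes and Mixl1, were not called. Mixl1 was called with a replicate block over the 12 libraries (-1.17, edgeR adjusted p = 0.0369, against -1.13 and 0.533 without it). The summed T, Eomes and Mixl1 level varied within a group at day 3, from 465 to 705 CPM in wild type and from 302 to 522 in the Quaking KO.

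Rises at the end were fewer. Stxbp5, which encodes tomosyn, a brake on vesicle fusion, was the named gene with the largest end-driven rise. It held 6.11, 5.59 and 5.53 CPM in wild type at day 0 against 6.3, 5.93 and 6.53 in the Quaking KO, and the groups overlapped. By day 3 the values were 27.2, 25.9 and 25.6 against 65.8, 58.6 and 63.5, with every Quaking KO library above every wild-type one. The interaction was 1.13 ± 0.09 (edgeR, adjusted p = 8.7e-08), with differences of 0.12 ± 0.07 and 1.26 ± 0.05. Stxbp5 lies on the minus strand of chr10:9755547-9901079. Zfp819, a zinc finger gene, fell in wild type from 36.3, 39.4 and 39.4 CPM to 16.6, 18.7 and 15.8. In the Quaking KO it went from 34.6, 34.3 and 33.7 CPM to 29.1, 27.8 and 27.2, and its interaction was 0.89 ± 0.08.

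**Figure D3:**
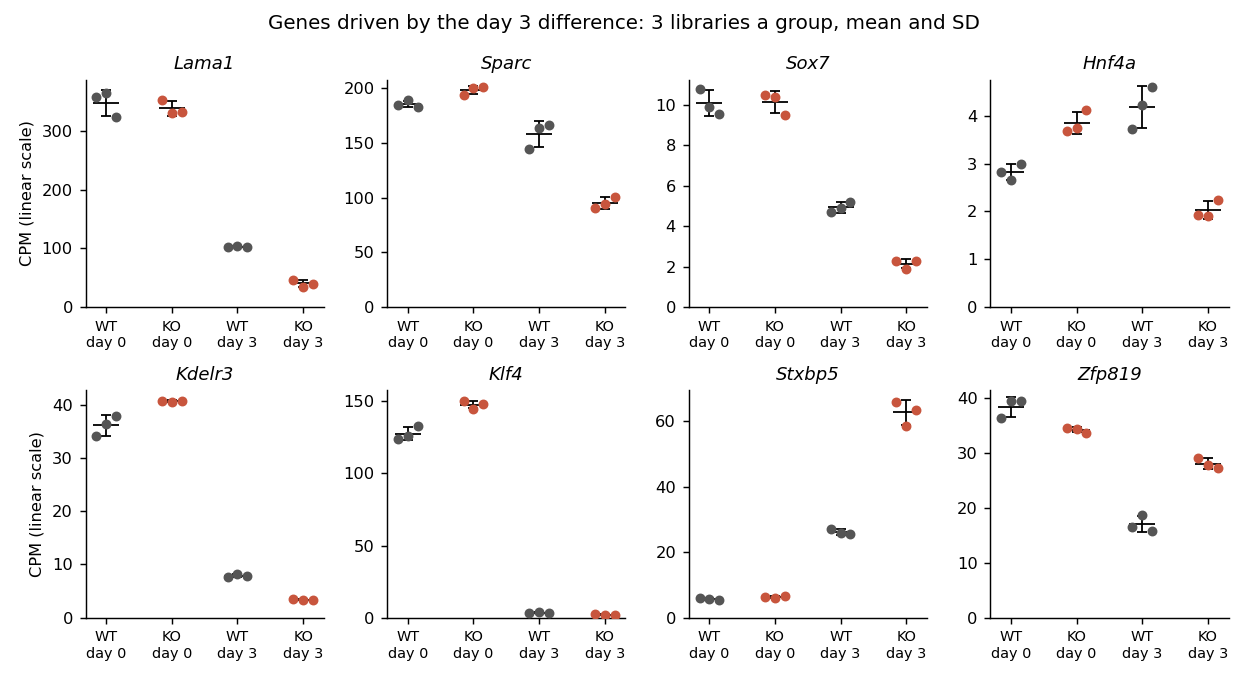
CPM on a linear scale in each of the 12 libraries for 8 genes whose interaction is driven by day 3; grey points are wild type, red points Quaking KO, and the bar and whiskers the mean and SD of 3 libraries. At day 3 the Quaking KO libraries lie below the wild type for Lama1, Sparc, Sox7, Hnf4a, Kdelr3 and Klf4 and above it for Stxbp5 and Zfp819.

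Mir294 and Mir295, hairpin genes of the miR-290 cluster on chromosome 7, were among the end-driven rises. The cluster makes the main microRNAs of mouse stem cells. Levels of its other hairpins are not described here. Mature 3p arms of the cluster are shown to compare their seeds (bases 2 to 8, in capitals), the part that pairs with targets. The sequences are from RefSeq on GRCm38.p6.
mmu-miR-294-3p: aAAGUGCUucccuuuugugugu
mmu-miR-295-3p: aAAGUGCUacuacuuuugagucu
mmu-miR-291a-3p: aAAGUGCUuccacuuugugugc
mmu-miR-291b-3p: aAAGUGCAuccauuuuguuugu
mmu-miR-290a-3p: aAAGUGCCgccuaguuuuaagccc
mmu-miR-293-3p: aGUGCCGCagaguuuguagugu
The first 3 share the seed AAGUGCU. The seeds of miR-291b-3p and miR-290a-3p differ from it only in their last base, and miR-293-3p has another seed, GUGCCGC. Mir295 held 5.12, 4.81 and 3.15 CPM in wild type at day 0 and 2.64, 2 and 2.15 at day 3. In the Quaking KO it held 3.68, 3.55 and 3.55 CPM at day 0 and 3.6, 3.49 and 4.32 at day 3. It therefore fell in wild type (-0.95 ± 0.15), while the change in the Quaking KO was 0.08 ± 0.15, and the interaction was 1.03 ± 0.21 (edgeR, adjusted p = 0.00254). Mir294 had an interaction of 0.79 ± 0.25 (adjusted p = 0.0396) whose call was lost without any of 7 single libraries (wild-type day 0 replicates 1 and 2, wild-type day 3 replicates 2 and 3, Quaking KO day 0 replicates 2 and 3 and Quaking KO day 3 replicate 3), at values of 0.63 to 0.80. All sequence of both hairpins is shared with other annotated genes, so their counts are uncertain, and counts of total RNA over a hairpin are not levels of the mature microRNA.

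The opposite-sign class held 123 genes, in which the lines crossed with differences of similar size. Genes that crossed with a size ratio of at least 2, such as Klf4, were counted with the start or the end. Serpinb6c, a serine protease inhibitor, held 7.53, 8.05 and 8.65 CPM in wild type at day 0 against 17.2, 17 and 18 in the Quaking KO, and 1.08, 1.43 and 1.17 against 0.54, 0.435 and 0.451 at day 3. Every KO library was above the wild type at day 0 and below it at day 3, and the interaction was -2.48 ± 0.17 (edgeR, adjusted p = 2.01e-08). Cemip, which takes part in hyaluronan breakdown, held 4.99, 6.21 and 4.91 CPM against 10.3, 9.78 and 10.6 at day 0. On day 3 the libraries held 7.5, 9.36 and 7.67 against 3.95, 3.78 and 4.06. Cemip rose in wild type (0.61 ± 0.10) and fell in the Quaking KO (-1.38 ± 0.10). Serpinh1, the collagen chaperone, crossed in the same direction from 0.22 ± 0.05 to -0.30 ± 0.05. In the other direction, Nphs1, which encodes nephrin, held 35.2, 35.4 and 31.9 CPM against 18.8, 19.2 and 21.1 at day 0. The day 3 libraries held 10.9, 8.16 and 8.91 against 12.2, 12.7 and 13.4, and the interaction was 1.25 ± 0.12. Lefty1, a Nodal antagonist with 17.9% of its sequence shared with other genes, crossed from -0.47 ± 0.11 to 0.37 ± 0.10. Col18a1, the collagen XVIII chain, crossed from -0.22 ± 0.05 to 0.29 ± 0.05. The size of this class was the least stable: it held 72 genes without wild-type day 3 replicate 2 and 80 without replicate 3.

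**Figure D4:**
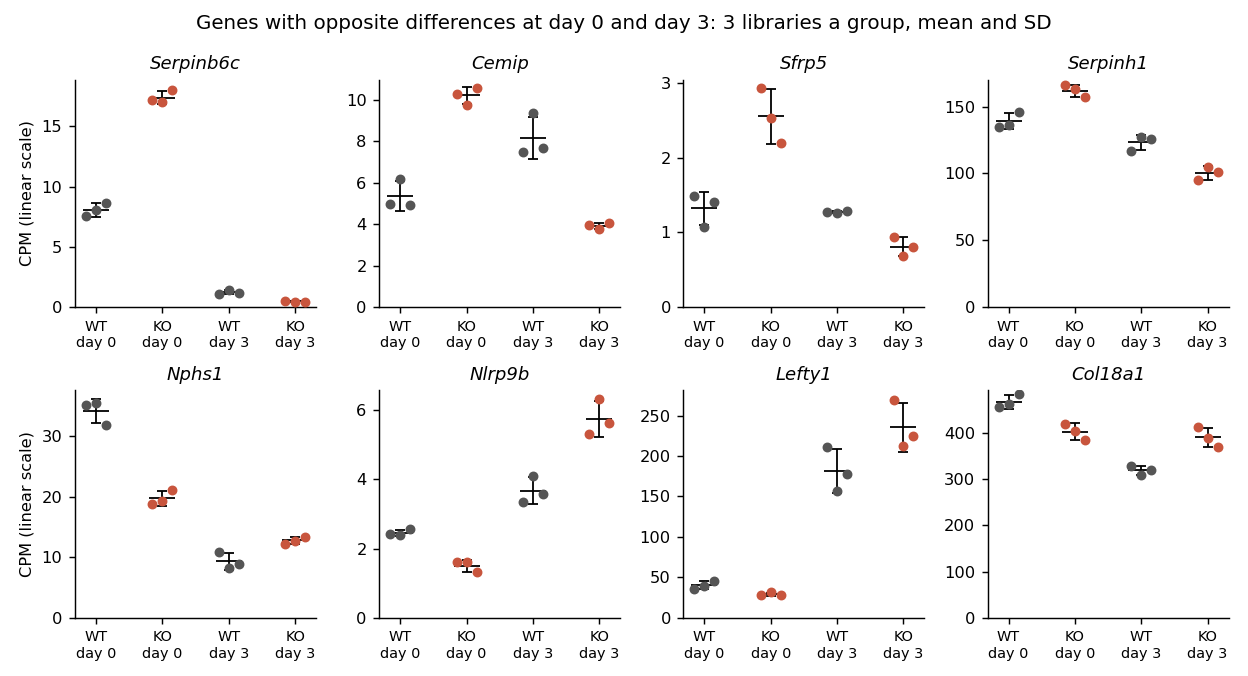
CPM on a linear scale in each of the 12 libraries for 8 genes whose lines differ with opposite signs at day 0 and day 3; grey points are wild type, red points Quaking KO, and the bar and whiskers the mean and SD of 3 libraries. Serpinb6c, Cemip, Sfrp5 and Serpinh1 start above the wild type and end below it, and Nphs1, Nlrp9b, Lefty1 and Col18a1 do the reverse.

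Genes that differed at both days with the same sign were few. Ddx3y, a Y-linked helicase, held 131, 132 and 126 CPM against 26.9, 24.7 and 26.7 at day 0 and 78, 82.4 and 80.5 against 11.5, 11.3 and 11.5 at day 3. Its interaction was -0.50 ± 0.06 on differences of -2.31 and -2.81. Of 6 Y-linked genes tested, 3 had a lower interaction, against 6.45% over all genes. The median difference of the 6 was -2.18 at day 0 and -2.59 at day 3. Whether the share of cells with a Y chromosome differed between the lines was not tested. Fmr1nb, a germline gene on the X chromosome, had differences of -3.22 and -4.08.

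In other lists the start drove most called members, as it did for 71.3% of all called genes. Over all genes, 9.45% had a higher interaction and 6.45% a lower one. Among methylation-silenced germline genes, 10 of 31 had a higher interaction and 1 a lower one, and the start drove 8. Tdrd1, a piRNA pathway gene, held 5.66, 5.35 and 4.94 CPM against 2.58, 2.37 and 2.67 at day 0, and 7.15, 8 and 7.46 against 8.6, 8.12 and 8.42 at day 3. Among imprinted genes, 10 of 33 had a higher interaction and none a lower one. At an unadjusted p under 0.05, 2 were lower in edgeR, and DESeq2 called none lower. The amino acid transporter Slc38a4 held 185, 186 and 185 CPM against 102 in each Quaking KO library at day 0, and its interaction was 0.63 ± 0.09. Of 24 amino acid response and ER stress genes, 11 had a lower interaction and 1, Xbp1, a higher one, with 9 start-driven. Slc7a3, a cationic amino acid transporter, held 212, 205 and 200 CPM against 260, 273 and 278 at day 0. Its day 3 values were 191, 167 and 179 against 181, 178 and 178, and the groups overlapped.

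Neural genes went both ways. Of 14 neural progenitor genes, 4 had a higher interaction and none a lower one (1 lower at an unadjusted p under 0.05 in edgeR, none by DESeq2). Of 18 neuronal genes, 4 were higher and 4 lower. The shares over all genes were 9.45% higher and 6.45% lower. Pax6, a neural and eye transcription factor, held 11.9, 12.1 and 11.1 CPM in wild type at day 0 against 3.66, 4.11 and 4.09 in the Quaking KO. By day 3 the values were 1.9, 1.74 and 1.83 against 2.14, 2.2 and 1.98. Pax6 fell in both lines, by 2.68 ± 0.08 in wild type and by 0.91 ± 0.09 in the Quaking KO on the log2 scale, and the interaction was 1.77 ± 0.12. Stmn2, a neuronal microtubule regulator, held 103, 113 and 109 CPM against 21.1, 23.7 and 23.4 at day 0. It held 35.4, 36.1 and 37.6 against 22.6, 23.3 and 22.5 at day 3, and the change in the Quaking KO was 0.00 ± 0.05. Ncam1, a neural adhesion molecule, and Tubb3, a neuronal tubulin, were instead higher in the Quaking KO at day 0 (0.56 ± 0.06 and 0.48 ± 0.06), and their interactions were -0.73 ± 0.10 and -0.42 ± 0.09. Tubb3 was not called in the fit of all 27 libraries. No member of the mitochondrial genome (15 tested) or of the nuclear respiratory chain list (28 tested) was called by edgeR or DESeq2, nor had any an unadjusted p under 0.05 in edgeR. Of 34 ribosomal protein genes, 3 were called, against 15.9% over all genes.

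**Figure D5:**
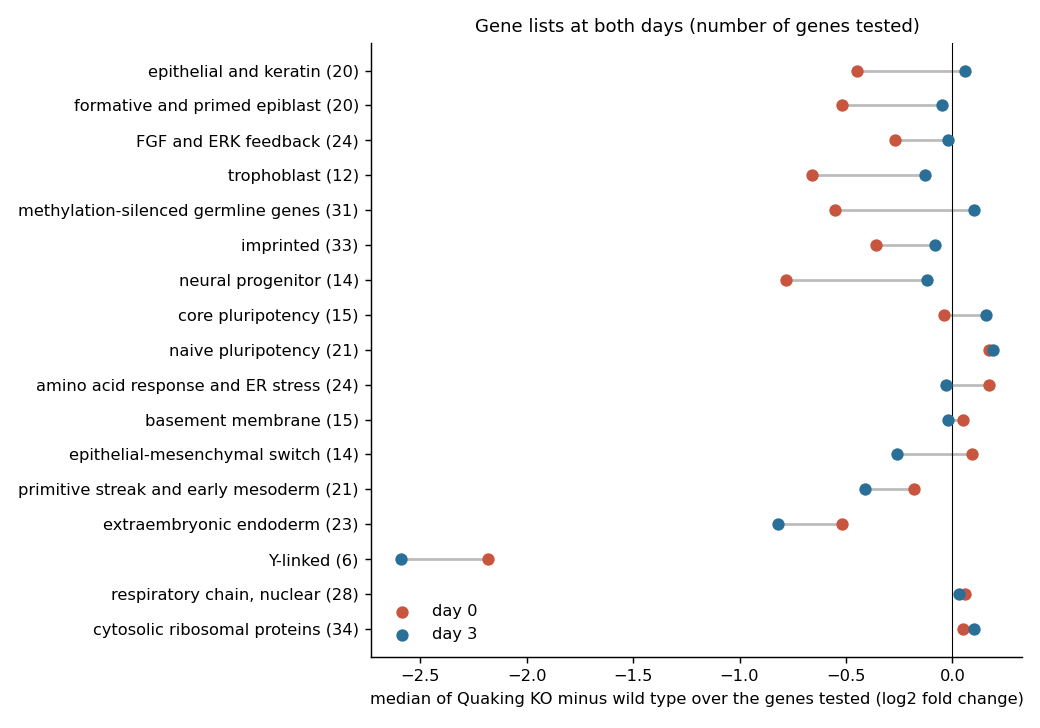
Median of Quaking KO minus wild type (log2 fold change) over the genes tested in 17 lists, at day 0 (red) and day 3 (blue). Epithelial, formative and FGF genes move from below 0 to near 0, while extraembryonic endoderm genes start at -0.52 and end at -0.82.

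The same contrast in the Sam68 KO line shares the wild-type libraries, so the lines were compared by the difference between their changes, in which wild type cancels. That difference was called for 7707 genes (38.6%). It was called with the sign of the Quaking KO interaction for 1847 of the 3172 genes, 1402 of the start-driven and 125 of the end-driven. Esrp1 (1.34 ± 0.08), Stxbp5 (1.01 ± 0.08) and Lama1 (-1.45 ± 0.10) were among them. The Quaking KO change enters both contrasts, so a shared sign was favoured in advance. For Nkd2 the difference was not called (0.21 ± 0.12). For Pax6 and Stmn2 the difference had the opposite sign (-0.98 ± 0.13 and -1.35 ± 0.08), since the interaction was larger in the Sam68 KO line (2.73 and 2.91). The Sam68 libraries carry their own run of library numbers, so a batch and that label cannot be told apart.

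The share of genes with an exact ACUAAC was close to the background in the start and end classes. In the annotated 3′ untranslated regions, ACUAAC (sense strand) occurred in 19.6% of all 14732 genes with one, in 21.7% of start-driven, 20.4% of end-driven and 19.1% of uncalled genes. Per kilobase the rates were 0.142, 0.139, 0.153 and 0.143. In the opposite-sign class ACUAAC occurred in 22.7% of 119 genes, at 0.132 per kilobase. The remaining classes, introns and variants of the element were not searched. Stxbp5 had none in 5366 bases, Lama1 and Klf4 had none, Esrp1 had 1 and Qk itself had 2.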

How the data were processed

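Total RNA libraries of 12 samples were compared, 3 replicates in each of 4 groups. The authors deposited a file of raw counts by gene for each library, and all values were whole numbers. Per the submitters' processing notes, bcl2fastq 2.17.1.14, STAR 2.5.3a and GRCm38 (mm10) were used. For the counting program, its strand setting and the annotation nothing is stated in the labels used, so a gene and an antisense or overlapping partner cannot be told apart. Identifiers were matched without version to GENCODE M21 (51633 of 51826, 99.6%), which gave symbols and coordinates. Sequence shared with other genes was measured in 50-base windows of the annotated transcripts.

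Genes were kept by filterByExpr (minimum count 10, minimum total 15), scaled by TMM and fitted without covariates by edgeR 4.0.16 (glmQLFit, glmQLFTest; limma 3.58.1, R 4.3.3), with Benjamini-Hochberg adjustment over all 19949 genes and a threshold of 0.05. The scripts were tested on simulated data. The interaction, the differences at both days and the change of each line came from 1 fit. DESeq2 1.42.0, other scalings and filters, a replicate block and leaving out each library were alternatives. CPM are on TMM-scaled totals, with no pseudocount. Levels are compared within a gene only, since CPM are not per length. The labels call the replicates biological without saying what was separate, so the p-values reflect the spread of these samples alone, which may be technical. The SE likewise come from the fitted spread between libraries and not from counting error alone.

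Genes named are Qk and Khdrbs1, the 12 largest rises and 12 largest falls with a mean CPM of at least 1 and no overlap, the 5 largest of each driver class and direction, and up to 2 members per direction of 40 gene lists. The text leaves some out for length. List members named beyond that, and members not called, were chosen after their values were seen. The members and lists were chosen with earlier results of these data known.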

Additional observations from a re-analysis of the deposited data

Results flagged for a closer look

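The Quaking KO difference changed between day 0 and day 3 for 3172 genes by the test of the interaction itself (edgeR, adjusted p under 0.05), and every called gene named above is among them. The groups of 3 libraries are too small for a test of single outlying samples. The interactions below are log2 fold changes, and those of Qk and of the epithelial, FGF and endoderm genes are described with their levels above. Among the genes driven by the day 0 difference, the higher interactions were Vrtn 2.91, Fgf5 2.81, Wnt8a 2.38, Dppa3 2.21, Esrp1 1.96, Pax6 1.77, Fgfr2 1.69, Lef1 1.61, Stmn2 1.58, Dusp4 1.56, Tdrd1 1.22, Grhl2 1.14, Cldn7 1.07, Nkd2 1.04, Krt18 1.00, Cldn6 0.99, Cldn3 0.94, Prss8 0.94, Egr1 0.87, Dusp6 0.66, Slc38a4 0.63, Epcam 0.62, Spry1 0.61, Pou3f1 0.55, Khdrbs1 0.50, Zeb2 0.49, Dnmt3a 0.47, Xbp1 0.40, Otx2 0.39, Spry2 0.34 and Spry4 0.32. Among the genes driven by the day 0 difference, the lower interactions were Krt17 -1.66, Tbx3 -0.98, Sfrp1 -0.91, Ncam1 -0.73, Tfcp2l1 -0.61, Nid1 -0.57, Fzd10 -0.49, Nanog -0.44, Tubb3 -0.42, Itga5 -0.40, Slc7a3 -0.40, Spint1 -0.38 and Lamc1 -0.36. Among the genes driven by the day 3 difference, the higher interactions were Stxbp5 1.13, Mir295 1.03, Zfp819 0.89, Mir294 0.79, Fbxo15 0.55, Dnmt3l 0.39, Dppa2 0.36, Fgf15 0.34, Cldn4 0.31 and Dppa4 0.31. Among the genes driven by the day 3 difference, the lower interactions were Hnf4a -1.49, Kdelr3 -1.40, Lama1 -1.32, Kdr -1.21, Sox7 -1.21, Klf4 -0.92, Sparc -0.83, Cubn -0.66, Col4a2 -0.59 and Tgfbr2 -0.54. Among the genes of the opposite-sign class, the higher interactions were Nlrp9b 1.36, Nphs1 1.25, Lefty1 0.84, Col18a1 0.50 and Cdh1 0.25. Among the genes of the opposite-sign class, the lower interactions were Serpinb6c -2.48, Cemip -1.99, Sfrp5 -1.61, Fst -1.18, Zeb1 -0.59 and Serpinh1 -0.52. Among the genes that differed at both days with the same sign, the lower interactions were Fmr1nb -0.86, Gata6 -0.79, Col4a1 -0.55, Ddx3y -0.50 and Qk -0.37. Lamb1, driven by the day 0 difference, had 0.29. The genes described in the last part below had interactions of -2.16 (Sh3tc2) and -1.50 (Tgfbi).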

How the results depend on the processing

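The interaction was called for 2500 to 3620 genes over the alternatives fitted on these groups, 3172 as reported, and the start class stayed the largest in each. DESeq2 called 2942, edgeR without a filter 3243, and the fit of all 27 libraries 2517. That fit lost the call of 14 genes named in the report: Cdh1, Cldn4, Col4a1, Col4a2, Dnmt3l, Dppa2, Dppa4, Fgf15, Fgf5, Lamc1, Otx2, Slc7a3, Spry4 and Tubb3, with no change of direction. Leaving out 1 library gave 2540 to 3238 interactions, 1828 to 2107 start-driven and 180 to 346 end-driven genes. The class with opposite signs was less stable than the others: 123 genes as reported, 72 to 163 with 1 library left out (72 without wild-type day 3 replicate 2 and 80 without replicate 3), 73 with each day fitted alone, and 584 by the size ratio alone, an alternative chosen after seeing the data that asks for no call at either day. The day 3 difference was called for 1677 genes as reported, for 1036 to 1910 with 1 library left out (1036 without wild-type day 3 replicate 2, 1080 without replicate 3 and 1910 without replicate 1), and for 1000 with day 3 fitted alone. The cause was not tested. Replicate numbers did not pair the samples over both days, though all 3 pairs of day 3 correlated above 0.1: same-numbered wild-type and Quaking KO libraries correlated in their deviations at -0.01, -0.17 and -0.28 at day 0 and at 0.62, 0.25 and 0.20 at day 3, and not every sample matched its own number best. With the replicate number as a block the interaction was called for 3612 genes over both days and 3620 within day, and the block within day gave 189 genes of opposite sign. Of the genes named as not called, Mixl1 and Pou5f1 were called under both blocks and Fgf4 under the block within day. All of these were also called without the filter on low counts, and Fgf4 without wild-type day 3 replicate 1. Sox2 was called without replicate 1 of either day 3 group and without replicate 1 of all 4 groups. No called gene named in the report lost its call under either block. No called gene named in the report reversed its sign in any alternative run. Lamb1 was left out of these checks of named genes. Depth limits the genes with few counts at day 0, such as Fgf5.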

Other observations

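Genes outside the lists had large interactions as well. Sh3tc2, an endosomal protein of Schwann cells, was driven by the end. It held 5.29, 5.43 and 5.42 CPM in wild type against 8.3, 8.66 and 8.41 in the Quaking KO at day 0, and 1.2, 1.47 and 1.37 against 0.598, 0.449 and 0.383 at day 3. Its interaction was -2.16 ± 0.17 (edgeR, adjusted p = 1.39e-07). Tgfbi, a secreted matrix protein induced by TGF-beta, had an interaction of -1.50 ± 0.17 with differences of 1.12 at day 0 and -0.38 at day 3.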
